A study of Mus musculus with 12 samples.

Results

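The taste transduction cascade of tuft cells was examined in gut epithelial cells of WT and Chd8L+/- mice. Its members were chosen by gene symbol from a list of 9 genes, Sucnr1, Tas1r3, Gnat3, Gnb3, Gng13, Plcb2, Plcg2, Itpr3 and Trpm5, and 8 of the 9 were found among the 14244 gene rows of the deposited table. Gnb3 was not analysed here. The mice were 8-week-old male C57BL/6 littermates, and each mouse gave a single RNA library, with 5 libraries from WT mice and 7 from Chd8L+/- mice. The heterozygous mice lack exons of the large isoform of Chd8, a chromatin remodeler, from 1 allele in the germline, so that the allele was altered in all tissues and not only in the epithelium. Libraries were made from a mixed preparation of loosened epithelial cells, in which tuft cells are a rare type, so that fewer tuft cells and less RNA per tuft cell cannot be told apart in any value below.

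Tuft cells are rare chemosensory epithelial cells that share their signaling machinery with the taste cells of the tongue. A ligand binds a G protein-coupled receptor, and the released G protein betagamma subunits activate phospholipase C, which cuts a membrane lipid to give inositol trisphosphate. This messenger opens receptors on the endoplasmic reticulum, and the calcium that leaves the store opens TRPM5, a cation channel that depolarises the cell. In the gut, the route is known for sensing succinate and other luminal signals of protists and bacteria, and it is linked to the release of IL-25 and leukotrienes.

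The transcription factor that specifies tuft cells, POU2F3, belongs to a family that binds the octamer ATGCAAAT. The RefSeq promoters of the members (GRCm38.p6) were searched for it on both strands, over the 250 bases before each start. The windows of Gnat3, Tas1r3 and the first start of Gng13 ended at the boundary of the annotated gene, with 229, 241 and 249 bases. Another Gng13 window, of 250 bases, lay inside the annotated gene. The sequences below are shown because they set the only members with the octamer, Sucnr1 and Itpr3, beside Gnat3 and Trpm5, which had large log2 fold changes between genotypes and lack it. Each is written 5′ to 3′ on the strand of its gene, and capitals mark the octamer or its reverse complement ATTTGCAT.
Sucnr1, chr3:60081619-60081868, plus strand: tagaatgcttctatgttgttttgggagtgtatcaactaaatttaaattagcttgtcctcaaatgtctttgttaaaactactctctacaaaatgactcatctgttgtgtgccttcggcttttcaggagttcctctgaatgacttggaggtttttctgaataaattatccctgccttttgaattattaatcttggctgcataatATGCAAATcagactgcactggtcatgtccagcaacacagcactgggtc
Itpr3, chr17:27057054-27057303, plus strand: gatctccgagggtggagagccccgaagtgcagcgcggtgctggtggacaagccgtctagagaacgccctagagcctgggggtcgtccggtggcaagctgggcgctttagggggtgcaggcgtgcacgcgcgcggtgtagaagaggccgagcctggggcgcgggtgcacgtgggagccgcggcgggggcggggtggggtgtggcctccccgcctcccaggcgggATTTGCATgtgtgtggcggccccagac
Gnat3, chr5:17962320-17962548, plus strand: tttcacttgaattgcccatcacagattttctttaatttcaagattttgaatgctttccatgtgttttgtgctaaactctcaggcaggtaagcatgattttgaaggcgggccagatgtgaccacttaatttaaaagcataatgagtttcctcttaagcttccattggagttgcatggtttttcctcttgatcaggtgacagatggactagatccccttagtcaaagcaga
Trpm5, chr7:143094643-143094892, minus strand: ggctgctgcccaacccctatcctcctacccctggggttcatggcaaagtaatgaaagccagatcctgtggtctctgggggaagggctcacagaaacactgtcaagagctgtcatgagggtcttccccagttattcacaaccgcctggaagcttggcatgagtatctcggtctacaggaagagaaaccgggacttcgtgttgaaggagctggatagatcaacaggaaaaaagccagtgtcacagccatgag

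The octamer of Sucnr1 lay 40 bases before its start and that of Itpr3 lay 19 bases before its start, on the opposite strand. It was not found in the windows of Gnat3, Trpm5, Plcb2, Gng13, Tas1r3 or Plcg2. Of all 32851 promoters in the RefSeq table, 526, or 1.60%, held the octamer in the 250 bases before the start. The shorter windows of Gnat3, Tas1r3 and Gng13 did not have that full length. Counted by gene, it was 490 of 27025, or 1.81%. A match is a description of these letters and shows neither binding nor its absence. The promoters also differed in composition. The Itpr3 window had 72.0% G and C and 25 CpG dinucleotides, whereas those of Sucnr1 and Gnat3 had 38.0% with 1 CpG and 40.8% with 2.

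Each library held 15691662 to 20761315 reads counted on genes. WT replicate 2 held members at the level of the Chd8L+/- libraries, and on the first principal component of all genes, which carried 39.7% of the variance, it lay at 41.0 among Chd8L+/- libraries at 0.27 to 42.7, away from the other WT libraries at -67.5 to -26.2. Chd8L+/- replicate 6 had the highest Trpm5, Plcb2, Plcg2 and Sucnr1 of its group, but on the same component it lay inside its group, at 17.2. Dixon's test for a single far library, run on each member in each genotype, found one in 0 of 16 groups. With 5 or 7 libraries in a group the test has little power, so this does not show that no library is far. The log2 fold changes of the members and the numbers of members called by limma are given with and without WT replicate 2. The numbers called are also given without both libraries. Correlations, levels per kilobase, shares of the Trpm5 count and medians of the gene lists are not given without WT replicate 2. The targeted gene, Chd8, was listed at 953 ± 85.5 normalized counts in WT (SD, n = 5) and 1297 ± 123 in Chd8L+/- (n = 7), higher in each Chd8L+/- library than in all WT libraries (exact permutation test, p = 0.00126, the smallest possible; limma adjusted p = 0.121). The Chd8 value is a count over the whole gene and does not separate the deleted exons, so it checks nothing about the allele.

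Mean counts of the members were lower in Chd8L+/- libraries, where the level that remained ranged from 15.0% of the WT mean for Gnat3 and 19.0% for Sucnr1, through 29.8% for Trpm5, 44.6% for Gng13, 45.9% for Plcb2 and 52.3% for Plcg2, to 76.1% for Itpr3 and 84.6% for Tas1r3. With all 12 libraries none of the 7 members that passed the filter of a mean of 10 normalized counts was called (limma on log2(normalized count + 1), adjusted p of 0.05 or less), where 3 of 12788 genes tested, or 0.0235%, were called lower. With unadjusted p-values of 0.05 or less, 5 of the 7, namely Gnat3, Trpm5, Plcb2, Sucnr1 and Plcg2, were lower, against 11.8% of all genes. Gng13 was below the filter. DESeq2 on the reads recovered from the normalized counts called 4 of 7 lower, Gnat3, Trpm5, Sucnr1 and Plcg2, against 4.62% of genes, while edgeR on the same reads called 0, against 0.0391% of genes, and had 2861 genes at unadjusted p-values of 0.05 or less. Without WT replicate 2, limma called 6 of 7 lower, all but Tas1r3, against 13.6% of genes, and without WT replicate 2 and Chd8L+/- replicate 6 it called 5 of 7, against 12.9%. The median log2 fold change was -0.94 over the 8 members, with Gng13 taken from a fit without the filter, and 0.014 over all genes tested. Without the filter the median over all genes was 0.023.

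**Figure D1:**
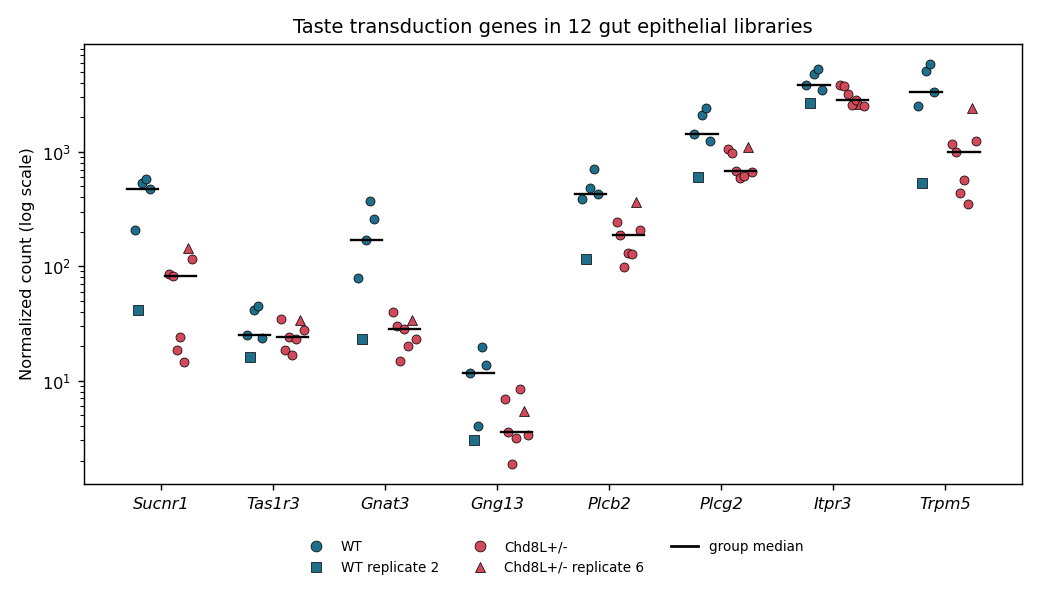
Normalized counts of the 8 taste transduction genes in each library (vertical axis, log scale), with WT in blue and Chd8L+/- in red and a bar at each group median. WT replicate 2 (square) sat within or below the Chd8L+/- values of each gene, and Chd8L+/- replicate 6 (triangle) was the highest Chd8L+/- library for Sucnr1, Plcb2, Plcg2 and Trpm5.

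Among the receptors, Sucnr1 showed the wider genotype gap. Sucnr1, on chromosome 3 at 60081869 to 60087566, encodes the G protein-coupled receptor for succinate. Its normalized counts in WT replicates 1 to 5 were 209, 41.6, 532, 583 and 470, and those of the 7 Chd8L+/- libraries ran from 14.7 through a median of 82.6 to 145. WT replicates 1, 3, 4 and 5 lay above all Chd8L+/- libraries, and WT replicate 2 lay above only 3 of the 7. The means were 367 ± 232 in WT and 69.7 ± 51.6 in Chd8L+/-, a log2 fold change of -2.36 (SE 0.72, 95% interval -3.91 to -0.81; limma adjusted p = 0.121; exact permutation test, p = 0.0227). Without WT replicate 2 it was -3.02 (adjusted p = 0.00556). The lowest Sucnr1 counts were in Chd8L+/- replicates 3, 4 and 5, at 18.7, 24.1 and 14.7, apart from the other 4 at 82.6 or more.

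Tas1r3 encodes a subunit shared by the sweet and umami receptors, and lies on chromosome 4 at 155859268 to 155863362. It was listed in WT replicates 1 to 5 at 24.9, 16.2, 41.3, 44.6 and 23.8 and in Chd8L+/- libraries at 16.8 to 34.5, with a median of 24.3. The groups overlapped almost fully, and WT replicate 2 was the lowest of the 12. Tas1r3 had a log2 fold change of -0.18 (SE 0.30, 95% interval -0.82 to 0.46; adjusted p = 0.728; exact permutation test, p = 0.510), an interval that leaves room for a fall of the size seen for Itpr3 and not for one of the size seen for Gnat3. It was -0.37 without WT replicate 2 (adjusted p = 0.355). Its annotated exons share 36 bases with Dvl1 on the other strand, a gene with 1102 ± 111 normalized counts in WT and 1134 ± 156 in Chd8L+/-, and reads of the pair cannot be told apart where the strand was not used.

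Gnat3, the alpha subunit gustducin, had the lowest Chd8L+/- mean relative to the WT mean among the members, while on the log2 scale Sucnr1 was lower. It lies on chromosome 5 at 17962549 to 18019834. Its normalized counts were 78.2, 23.3, 169, 374 and 261 in WT replicates 1 to 5, against 14.9 to 39.7 in Chd8L+/- libraries with a median of 28.3. WT replicate 2 lay inside the Chd8L+/- range, and the other 4 WT libraries were all above it, including WT replicate 1, which was low among them. Its log2 fold change was -2.23 (SE 0.54, 95% interval -3.39 to -1.06; adjusted p = 0.121; exact permutation test, p = 0.00631), and -2.82 without WT replicate 2 (adjusted p = 0.00255). Chd8L+/- replicate 6, the highest of its group for Trpm5, was at 33.7 for Gnat3, below Chd8L+/- replicate 1.

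Gng13, a gamma subunit that pairs with gustducin in taste cells, was near the limit of detection, with 2 to 20 reads per library. Its normalized counts were 11.6, 3.04, 4.03, 19.8 and 13.8 in WT replicates 1 to 5 and 1.87 to 8.38, with a median of 3.55, in Chd8L+/- libraries. The WT values split into 3 above all Chd8L+/- libraries and 2 among them, WT replicates 2 and 3. In a fit without the filter the log2 fold change was -0.86 (SE 0.48, 95% interval -1.89 to 0.17; exact permutation test, p = 0.0972), and -1.17 without WT replicate 2. Chtf18, whose exons overlap Gng13 on the opposite strand by 399 bases, had a higher mean in Chd8L+/-, with 100.6 ± 60.5 in WT and 185 ± 61.0 in Chd8L+/-, and its share in the Gng13 counts was not tested.

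The phospholipases had a smaller gap between genotypes than Gnat3 or Sucnr1. Plcb2, the phospholipase C beta of taste cells, lies on chromosome 2 at 118707517 to 118728438, and its normalized counts were 384, 116, 482, 704 and 425 in WT replicates 1 to 5 and 98.0 to 362 in Chd8L+/- libraries, with a median of 188. All 7 Chd8L+/- libraries were below the lowest of the 4 other WT libraries, and the closest was Chd8L+/- replicate 6 at 362 against WT replicate 1 at 384. Its log2 fold change was -1.03 (SE 0.40, 95% interval -1.90 to -0.17; adjusted p = 0.154; exact permutation test, p = 0.0518). It was -1.44 without WT replicate 2 (adjusted p = 0.00660).

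Plcg2 encodes the phospholipase C gamma of immune receptor signaling, which B cells and myeloid cells also express, and lies on chromosome 8 at 117498291 to 117635142. WT replicates 1 to 5 had 1443, 602, 2099, 2408 and 1255 normalized counts, and Chd8L+/- libraries had 594 to 1108, with a median of 683. WT replicate 2 lay at the bottom of the Chd8L+/- range and the other WT libraries above it. Plcg2 thus had a log2 fold change of -0.83 (SE 0.30, 95% interval -1.47 to -0.19; adjusted p = 0.134; exact permutation test, p = 0.0417), and -1.14 without WT replicate 2 (adjusted p = 0.00506). The summed B cell markers were 505 to 2542 in WT and 259 to 4941 in Chd8L+/- libraries, with the lowest sum in Chd8L+/- replicate 6, the library with the highest Plcg2 of its group. The part of these cells in the Plcg2 counts was not tested.

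Itpr3, the inositol trisphosphate receptor type 3 that releases stored calcium, lies on chromosome 17 at 27057304 to 27122223. Its normalized counts of 3875, 2668, 4756, 5268 and 3437 in WT replicates 1 to 5 and 2520 to 3872, with a median of 2815, in Chd8L+/- libraries overlapped widely. Chd8L+/- replicates 1 and 2, at 3872 and 3787, reached the WT values, while Chd8L+/- replicate 6 stayed low at 2598, unlike its Trpm5. The log2 fold change was -0.37 (SE 0.18, 95% interval -0.76 to 0.0096; adjusted p = 0.215; exact permutation test, p = 0.0783), and -0.51 without WT replicate 2 (adjusted p = 0.0339). Without WT replicate 2 and Chd8L+/- replicate 6 it was -0.48 and not called (adjusted p = 0.0544). Itpr3os, which shares 233 exon bases with Itpr3 on the other strand, had no listed counts, and its share in the Itpr3 counts was not tested.

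Trpm5, the cation channel at the end of the cascade, lies on chromosome 7 at 143069153 to 143094642. It was listed at 2534, 536, 5044, 5858 and 3323 normalized counts in WT replicates 1 to 5 and at 349 to 2437, with a median of 999.7, in Chd8L+/- libraries. WT replicate 1, at 2534, and Chd8L+/- replicate 6, at 2437, almost met, whereas the next Chd8L+/- library was at 1242. The log2 fold change was -1.65 (SE 0.58, 95% interval -2.89 to -0.42; adjusted p = 0.130; exact permutation test, p = 0.0404). It was -2.23 without WT replicate 2 (adjusted p = 0.00556) and -2.48 without both libraries (adjusted p = 0.00253). Tssc4, which shares 220 exon bases with Trpm5 on the other strand, was listed at 333 ± 66.1 in WT and 276 ± 53.7 in Chd8L+/-.

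None of the members had all Chd8L+/- libraries below all WT libraries, which 0.274% of genes tested did. Against the WT libraries other than replicate 2, all 7 Chd8L+/- libraries were lower for Gnat3, Trpm5, Plcb2, Sucnr1 and Plcg2, 5 of 7 for Itpr3, 4 for Gng13 and 3 for Tas1r3. Of all genes tested, 7.72% separated in this way, and WT replicate 2 was set aside after its low values had been seen. Library names open with a letter whose meaning the labels do not give, and within it the direction mostly held. Chd8L+/- replicate 7 was the only D library, with no WT library of its letter, and so is not in the differences within letters. Trpm5 was lower in Chd8L+/- by a log2 difference of -1.22 among the A libraries (2 against 2), -3.66 among B (2 WT against 1) and -1.83 among C (1 WT against 3). The values were -1.02, -3.91 and -2.27 for Gnat3, -2.09, -5.07 and -2.38 for Sucnr1, and -0.18, -0.60 and -0.50 for Itpr3. Tas1r3 was level among the A libraries, at 0.0041, and Gng13 was higher in Chd8L+/- among C, at 0.29. With the letter as a block, Gnat3, Trpm5 and Sucnr1 were called lower (adjusted p = 0.0433, 0.0472 and 0.0433), against 2.16% of genes. With the number in the library names as a block none of them was called (adjusted p = 0.188, 0.235 and 0.223), and neither was any other of the 12788 genes, although 2387 had unadjusted p-values of 0.05 or less.

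Levels were compared between members as normalized counts per kilobase of annotated exon. The order of the mean levels in WT was Trpm5 at 541 ± 329, Itpr3 at 444 ± 115, Plcg2 at 363 ± 166, Sucnr1 at 224 ± 142, Gnat3 at 133 ± 103, Plcb2 at 64.0 ± 32.0, Gng13 at 13.5 ± 9.07 and Tas1r3 at 8.57 ± 3.47 (SD, n = 5). Neighbours could not be ordered beyond their spread at the top, where Trpm5 exceeded Itpr3 in 3 of 5 libraries, between Gnat3 and Plcb2 (3 of 5) and between Gng13 and Tas1r3 (3 of 5); the remaining steps held in 5 of 5 libraries. In Chd8L+/- libraries the order became Itpr3 at 338 ± 64.6, Plcg2 at 190 ± 51.9, Trpm5 at 161 ± 112, Sucnr1 at 42.5 ± 31.5, Plcb2 at 29.4 ± 13.7, Gnat3 at 19.9 ± 6.21, Tas1r3 at 7.25 ± 1.95 and Gng13 at 6.03 ± 3.02 (n = 7). The channel thus stood above all other members in the WT means and below Itpr3 and Plcg2 in the Chd8L+/- means. In WT replicate 2, Itpr3 was at 296, Plcg2 at 140 and Trpm5 at 83.7, in the order of the Chd8L+/- means. Plcg2 exceeded Trpm5 in 5 of 7 and Sucnr1 exceeded Plcb2 in 4 of 7 Chd8L+/- libraries, so that these neighbours were not separated.

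Members varied together within genotypes to different degrees. Over the 12 libraries, with each value taken as its deviation from the genotype mean on the log2 scale, the correlations of the 28 pairs ran from 0.34 to 0.97 with a median of 0.74, as a description of libraries that share their composition and scaling. Trpm5 correlated with Plcb2 at 0.97 and with Sucnr1 at 0.97, and the 10 pairs among Gnat3, Trpm5, Plcb2, Sucnr1 and Plcg2 ran from 0.797 to 0.97. Pairs with Itpr3 had a median of 0.55 and those with Gng13 a median of 0.43. These values pool both genotypes. Among the 5 WT libraries alone the pairs ran from 0.40 to 0.99, and among the 7 Chd8L+/- libraries alone from -0.02 to 0.96. Itpr3 went with Trpm5 among the 5 WT libraries (r = 0.92) and not among the 7 Chd8L+/- libraries (r = -0.02). There the highest Trpm5 and a low Itpr3 came from the same library. The low correlation in Chd8L+/- was not particular to Trpm5. Itpr3 had 0.003 with Plcb2, 0.08 with Tas1r3, 0.09 with Sucnr1 and Gng13, 0.26 with Gnat3 and 0.53 with Plcg2.

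Gnat3 was also set against Trpm5 within each library. It amounted to 3.09%, 4.36%, 3.36%, 6.38% and 7.85% of the Trpm5 count in WT replicates 1 to 5, and to 1.38% to 5.71% in Chd8L+/- libraries. The ranges overlapped, and the lowest shares were those of Chd8L+/- replicates 6 and 7, at 1.38% and 1.88%.

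The level of tuft cell markers was given by the summed normalized counts of 20 genes that are not members, among them Dclk1, Pou2f3 and Avil. All 20 were detected and tested, 20 were lower in Chd8L+/- at an unadjusted p-value of 0.05 or less, against 11.8% of all genes, limma called 0 of them after adjustment, edgeR 0 and DESeq2 17, against 4.62%, and their median log2 fold change was -1.77. Their sum was 17301, 4327, 35660, 37240 and 25559 in WT replicates 1 to 5 and 2270 to 16246, with a median of 6384, in Chd8L+/- libraries. The order of libraries was close to that of Trpm5, with WT replicate 2 at the level of Chd8L+/- libraries and Chd8L+/- replicate 6 just under WT replicate 1.

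Each member was also expressed per 1000 counts of tuft markers in its library, and the 8 ratios were compared between genotypes. Trpm5 had 124 to 157 counts per 1000 in WT and 135 to 193 in Chd8L+/- (1.12-fold higher in Chd8L+/-; two-sided exact permutation test, p = 0.0960), the narrowest spread of the members. Gnat3 had 4.52 to 10.2 and 2.07 to 8.10 (p = 0.277, exact) and Sucnr1 had 9.62 to 18.4 and 5.69 to 15.3 (p = 0.0732, exact). Both of these were lower in Chd8L+/- on average, by 0.44 and 0.57 on the log2 scale. Relative to the markers, Plcb2 was 1.73-fold higher in Chd8L+/- (13.5 to 26.7 against 22.3 to 51.6 per 1000; p = 0.00631, exact), Plcg2 1.99-fold (p = 0.0354, exact), Itpr3 2.73-fold (p = 0.0379, exact) and Tas1r3 3.10-fold (0.93 to 3.75 against 2.07 to 10.7; p = 0.0126, exact). Gng13 was 1.78-fold higher (p = 0.270, exact). These 8 p-values are unadjusted. The markers themselves had a median log2 fold change of -1.77, so a member that fell less than they did has a higher ratio. Tas1r3, for instance, had a log2 fold change of only -0.18 in its own counts. The higher ratios thus do not show a rise of these members, and counts from cells other than tuft cells were not tested. Without WT replicate 2 the ratios of Plcb2, Plcg2, Itpr3 and Tas1r3 were 1.88-fold, 2.33-fold, 3.60-fold and 3.92-fold higher (p = 0.00606, 0.0152, 0.0152 and 0.00303, exact). Those of Trpm5 and Gng13 were 1.09-fold and 2.01-fold higher (p = 0.227 and 0.221, exact). Sucnr1 and Gnat3 were lower by log2 differences of -0.70 and -0.51 (p = 0.0485 and 0.267, exact). These p-values are unadjusted too. WT replicate 2, with a low marker sum, had 617 Itpr3 counts per 1000, inside the Chd8L+/- range of 160 to 1404, while the median of WT was 141.

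**Figure D2:**
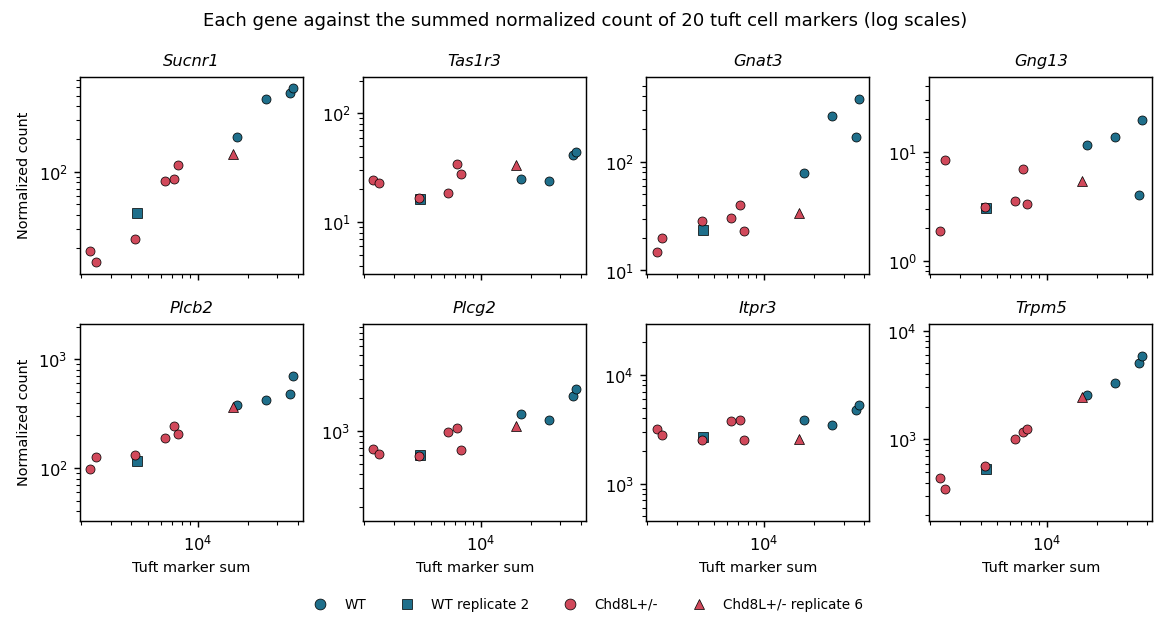
Normalized count of each member (vertical axis, log scale, the same fold range in each panel) against the sum of 20 tuft cell markers (horizontal axis, log scale), 1 point a library. Trpm5, Sucnr1 and Plcb2 were higher where the marker sum was higher, over both genotypes, whereas Itpr3 and Tas1r3 spanned a narrower range, from 2520 to 5268 and from 16.2 to 44.6.

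The genes most like the members, by the correlation of their deviations with the mean deviation of the members over 12 libraries, were Slc4a8 (r = 0.97), Nebl, Nrgn, Ptpn6, Spib, Atp2b2, Rhog, Wbp1, Sik1 and Map1a (r = 0.96) among 12781 other genes tested. Slc4a8, a bicarbonate transporter, was listed at 267 ± 163 in WT and 69.3 ± 32.8 in Chd8L+/- (log2 fold change -1.74, adjusted p = 0.121). Nrgn, a calmodulin-binding protein, had a log2 fold change of -2.12, and Spib, an ETS transcription factor, one of -1.57. Ptpn6, a phosphatase of immune receptor signaling, had -0.98, and the smallest differences among the 10 were those of Rhog at -0.47 and Wbp1 at -0.39. None of the 10 was called by limma over 12 libraries, with adjusted p-values of 0.121 to 0.158.

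Other genes of the pathway were taken from lists of receptors, G protein subunits, RGS inhibitors, phospholipases, calcium store genes, membrane channels and tuft cell outputs. Of 74 genes listed, 58 were in the table and 52 were tested, of which 34 had a lower and 18 a higher mean log2 level in Chd8L+/-. With unadjusted p-values of 0.05 or less 16 were lower and 4 higher, against 11.8% and 12.5% of all genes, and 0 were called with limma or with edgeR. Of these 16, 7 were the tuft cell outputs, which are products of the cells and not parts of the cascade. The others were 2 of 4 receptors, 3 of 17 G protein subunits, 2 of 3 RGS inhibitors and 2 of 9 calcium store genes. Phospholipases and membrane channels had 0 of 6 each. DESeq2 called 15 of 51, of which 13 were lower, against 4.62% of all genes called lower. The median log2 fold change was -0.17. Without WT replicate 2, 22 of 52 were called, 20 of them lower, against 13.6% of all genes called lower.

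Among the other receptors, 4 of the 18 listed were tested, and their log2 fold changes ran from -2.80 for Vmn2r26, a vomeronasal receptor that senses a bacterial metabolite in tuft cells, to 0.67 for Ffar4, a receptor of long-chain fatty acids. Vmn2r26 was listed at 156 ± 120 in WT and 16.4 ± 12.3 in Chd8L+/-. Tas1r2, the partner of TAS1R3 in the sweet receptor, was below the filter at 3.45 ± 4.21 in WT and 2.35 ± 1.43 in Chd8L+/-.

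The relatives of the G protein members differed less than Gnat3. Gnat1 and Gnat2, the transducins of rods and cones, had log2 fold changes of -0.65 and 0.67, and the lowest of the subunits was Gnai1, an inhibitory alpha subunit, at -1.70 (184 ± 131 in WT, 44.9 ± 13.9 in Chd8L+/-). The beta subunits Gnb1, Gnb2, Gnb4 and Gnb5 had -0.44, -0.25, -0.14 and -0.61. The gamma subunits Gng2, Gng5, Gng10 and Gng12 had -0.08, -0.50, -0.27 and -0.09. Of the RGS genes, which speed the shutting off of G proteins, Rgs13 had the lowest log2 fold change, -1.76, and Rgs19 the highest, -0.13.

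Relatives of the members further down the cascade did not share the values of Plcb2 and Trpm5. Plcb1, Plcb3 and Plcb4 had log2 fold changes of 0.25, 0.15 and 0.42 and Plcg1 had 0.12, and the range of the list was -0.09 for Plcd1 to 0.78 for Plce1. The other inositol trisphosphate receptors, Itpr1 and Itpr2, had 0.36 and -0.38, and among the calcium store genes the extremes were Atp2a3, a calcium pump, at -0.82 and Itpr1. Trpm4, the channel most akin to TRPM5, was level at 3131 ± 588 in WT and 3323 ± 584 in Chd8L+/- (log2 fold change 0.09). Trpm2, Trpm6 and Trpm7 had 0.01, 1.42 and 0.31, and Scnn1a, an epithelial sodium channel subunit, had the lowest value of the channels, -0.16. Differences between a member and its relatives were not tested.

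The outputs of tuft cells had 7 of 7 genes lower at an unadjusted p-value of 0.05 or less, against 11.8% of all genes, with a median log2 fold change of -1.77, from Alox5ap, a protein of leukotriene synthesis, at -2.26 to Hpgds, a prostaglandin D synthase, at -1.26. All of them but Alox5 are also among the 20 tuft markers above, as is Rgs13.

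**Figure D3:**
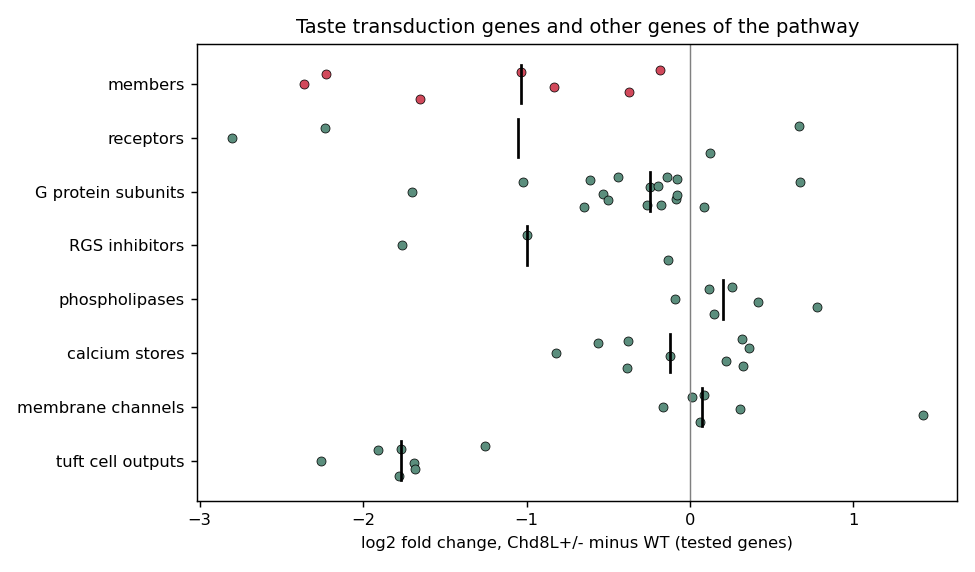
The log2 fold change, Chd8L+/- minus WT, of the tested members (red) and of the tested genes of each pathway list (green), with a bar at each median. Members spread from -2.36 to -0.18, the tuft cell outputs lay between -2.26 and -1.26, and the phospholipases and membrane channels had medians above 0.

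Markers of other cells in the preparation had smaller differences than the tuft markers or differences in the other direction. The median log2 fold change was -0.17 for 6 pan-epithelial markers, whose sum was 137327 to 224918 in WT and 132879 to 222682 in Chd8L+/-, -0.04 for 10 enteroendocrine markers (4657 to 9344 and 5246 to 8533), -0.49 for 10 B cell markers, -0.17 for 9 T cell markers (2400 to 5810 and 2451 to 6860) and -0.24 for 2 mast cell markers of 5 listed (71.4 to 534 and 54.4 to 288). Myeloid markers were higher in Chd8L+/- in 10 of 11, with a median of 0.97 (408 to 818 and 502 to 1424), and stromal markers in 5 of 5 tested, with a median of 2.03 (15.1 to 328 and 45.5 to 1514). WT replicate 2 had the highest myeloid and stromal sums of the WT libraries, 818 and 328, and Chd8L+/- replicate 6 the lowest of its group, 502 and 45.5, so that these sums ran against Trpm5 in both libraries. No list had a gene at 0 in all libraries. The part of these cells in the members' values was not tested.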

How the data were processed

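RNA of gut epithelial cells from 5 WT and 7 Chd8L+/- mice was analysed. The authors enriched poly(A) RNA, made libraries with a kit not stated to keep strand, mapped single-end reads to mm10 with Tophat2 and used DESeq2. What they deposited is a normalized signal: read counts divided by each library's size factor. The counting program, annotation, use of strand and gene filter are not given in the sources used here. Of 14244 rows, 21 with names turned into dates were left out, and 0 columns belonged to other samples. Dividing by what 1 read was worth gave whole reads (within 0.01) for 100% of the values.

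All 12 libraries entered limma 3.58.1 in R 4.3.3 (lmFit, then eBayes with a mean-variance trend), fitted to log2(value + 1) of the 12788 genes whose mean was 10 or more, with Benjamini-Hochberg adjustment over all of them. Fold changes on this scale understate those of low genes. For single genes, a two-sided exact permutation test ran over all 792 arrangements of the genotype labels. The fit was tested on simulated data. Recovered reads were fitted with edgeR 4.0.16 and DESeq2 1.42.0. Other alternatives were a pseudocount of 0.5 or 5, no filter, 10 in every library, quantile normalization, blocks of replicate number, library letter or library number, 1 surrogate variable (sva 3.50.0), and each library left out. Leaving out WT replicate 2 with Chd8L+/- replicate 6, DESeq2 without WT replicate 2, the motif search and the ratios to the tuft marker sum were chosen after seeing the data.

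The members, gene lists and tests were chosen with earlier results of these data known. Named genes are the members, Chd8, genes whose exons overlap a member, family relatives of the members within the lists (Tas1r, Gnat, Gnb, Gng, Plcb, Plcg, Itpr and Trpm), the lowest and highest tested gene of each list, and the 10 genes most like the members. Positions and exon lengths come from GENCODE M21 on GRCm38, which may not be the annotation the authors used.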

Additional observations from a re-analysis of the deposited data

How the results depend on the processing

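The 7 tested members were lower in Chd8L+/- in all 25 alternatives, and Gng13 in the 22 that gave it a value, except that with 1 surrogate variable Tas1r3 had a log2 fold change of 0.36 and Itpr3 of 0.018. That variable correlated with the mean log2 level of the members over the 12 libraries (r = -0.95, rho = -0.89), and with it the median over the members moved from -0.94 to -0.080. The variable also differed between genotypes, at -0.217 ± 0.337 in WT and 0.155 ± 0.154 in Chd8L+/- (mean and SD). It was 0.333 in WT replicate 2. Since the variable goes with both genotype and the members, this fit cannot separate them, and what the adjustment removed was not tested. The number of genes called went from 3 to 5 with edgeR, 811 with DESeq2, 451 with the library letter as a block and 0 with the library number as a block. With 1 surrogate variable it was 2. In that fit 554 genes had unadjusted p-values of 0.05 or less, against 3107 in the limma fit without the variable. It called 0 of the 7 tested members, and their limma adjusted p-values were 0.9198 or more. The number of members called went from 0 to 4 with DESeq2 and 3 with the library letter as a block.

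Leaving out 1 library at a time gave 0 to 3532 genes and 0 to 6 members called, and both highest values came from leaving out WT replicate 2. Without WT replicate 2 and Chd8L+/- replicate 6, 3233 genes and 5 members were called, and DESeq2 without WT replicate 2 called 4106 genes and 6 members. The cause of these differences between settings was not tested. With the replicate number as a block (replicate block), 0 genes and 0 members were called and the median over the members was -1.08. The labels do not say whether the numbers pair mice, and correlations of so few libraries cannot decide it. Same-numbered libraries correlated at -0.34 to 0.19 in their deviations, and 1 of 5 WT libraries correlated best with its own number. Gng13, with few reads in each library, was not called where a fit gave it an adjusted p (0.294 without the filter, 0.0595 with DESeq2 without WT replicate 2). Quantile normalization, edgeR and the minimum in every library gave it no value.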
